A study of Gallus gallus with 6 samples.

Results

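The liver transcriptomes of 3 laying hens of 30 weeks (L30) and 3 juvenile hens of 20 weeks (L20) were examined for the membrane transporters that carry sugars, vitamins, choline, nucleosides and other organic ions. All hens were caged females of the Lushi green shell chicken, a Chinese domestic breed, kept under the same conditions, and each liver gave 1 mRNA library. Age and laying state changed together in these hens, so their effects cannot be told apart. The transporters were taken by gene name, as every gene named SLCO or named as a member of the families SLC2, SLC5, SLC13, SLC16, SLC19, SLC22, SLC23, SLC28, SLC29, SLC44, SLC46 and SLC52. The rule found 66 genes in 13 families among the 14078 genes of the table. One of them, SLC2A4RG, is described in the table as a regulator of SLC2A4 and not as a transporter, which leaves 65 transporter genes. The name SLC16A3 stood on 2 genes, of which one (ENSGALG00000012288) is described as member 8 of the family.

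Solute carriers move small polar molecules across membranes that these molecules cannot cross alone. Most SLC2 proteins are facilitative carriers that let sugars and urate follow their gradient, whereas the SLC5 proteins couple uptake to sodium. The other families carry lactate and related acids (SLC16), folate and thiamine (SLC19), organic cations, carnitine and ergothioneine (SLC22), ascorbate (SLC23), nucleosides (SLC28 and SLC29), choline (SLC44), riboflavin (SLC52), and bile acids and steroid conjugates (SLCO). The liver uses them to take up portal nutrients, release glucose and clear organic anions, and in laying hens it also makes the lipids and proteins of the yolk. The roles given for single genes below are known mostly from mammals.

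Levels are in FPKM, a read count scaled by exon length and by library size, which allows genes of different length to be compared within a library. The libraries held between 13764705 and 21570330 reads on genes. A check of laying used 4 genes, the yolk precursor genes VTG2, APOVLDLII and APOB, and TPRXL. All 4 were higher in L30, with an adjusted p below the threshold in limma. The paper had reported VTG2, APOVLDLII and APOB as higher in these same laying hens. The list was chosen with earlier results of these data known, so this check is not independent. The hepatocyte markers summed to an L30 to L20 ratio of 0.974. Of the 5 hepatocyte markers 4 were DE (unadjusted p of at most 0.05 in limma), against 22.7% of all genes tested (11.0% higher and 11.7% lower). None of them had an adjusted p of at most 0.05. ALB, AHSG and HNF4A were higher (ratios of 1.99, 4.36 and 1.71) and FGB lower (ratio of 0.403) in L30, so the sum joins differences in opposite directions. Of the 47 cell type marker names chosen, 34 were found among the genes measured. None of the 7 cell type marker lists had a found marker at 0 in all hens. The summed macrophage, lymphocyte, endothelial and stellate cell markers were lower in L30 on average, with ratios between 0.599 and 0.670. The liver pieces were bulk tissue, so fewer cells of a type and less RNA per cell cannot be told apart.

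Of the 66 genes, 41 had a mean of at least 1 FPKM over the 6 hens and were tested. Their mean levels were at least 10 FPKM in 19 genes, 5 to 10 FPKM in 7 genes and 1 to 5 FPKM in 15 genes. A gene was called differentially expressed (DE) when limma gave it an unadjusted p of at most 0.05. By this rule 13 of the 41 (31.7%) were DE, 6 higher and 7 lower in L30, whereas 22.7% of all 9732 genes tested were DE, 11.0% higher and 11.7% lower. Of these, 4 also passed a Benjamini-Hochberg adjusted p of 0.05 over all genes, against 3.40% of all genes (2.19% higher and 1.21% lower). They were the choline transporter-like gene SLC44A3 and the urate carrier SLC2A9, which rose, and the glucose carriers SLC2A3 and SLC2A6, which fell. Significantly differentially expressed (SDE) genes had in addition a ratio of means of at least 2 or at most 0.5, and these were SLC44A3, SLC2A9 and SLC2A6, against 2.75% of all genes (1.82% higher and 0.935% lower). These adjusted calls changed when single hens were left out. None of the 3 was SDE without L20 hen 3 or without L30 hen 2. Of the 3, 1 was SDE without L20 hen 2 or without L30 hen 1, and 2 were without L20 hen 1. Over all genes the number of SDE genes also fell, from 268 to 64 without L20 hen 3 and to 67 without L30 hen 2. It rose to 385 without L30 hen 3. Without L30 hen 3 SLC44A3 and SLC2A9 stayed SDE, whereas SLC2A6 lost its call (adjusted p = 0.0671 in limma). The adjusted p over the 6 fits without 1 hen ranged from 0.0134 to 0.0610 for SLC44A3, from 0.0434 to 0.143 for SLC2A9, from 0.0423 to 0.0989 for SLC2A3 and from 0.0452 to 0.132 for SLC2A6 in limma. All 4 genes stayed DE in each of these 6 fits, with an unadjusted p of at most 0.0053 in limma. The 3 hens of L30 lay wholly above or below those of L20 in 13 of the 41 genes (31.7%), 7 above and 6 below, which is near the 30.0% of all genes (14.0% above and 16.0% below). The median log2 fold change was −0.044 for the 41 genes and −0.037 for all genes tested.

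**Figure D1:**
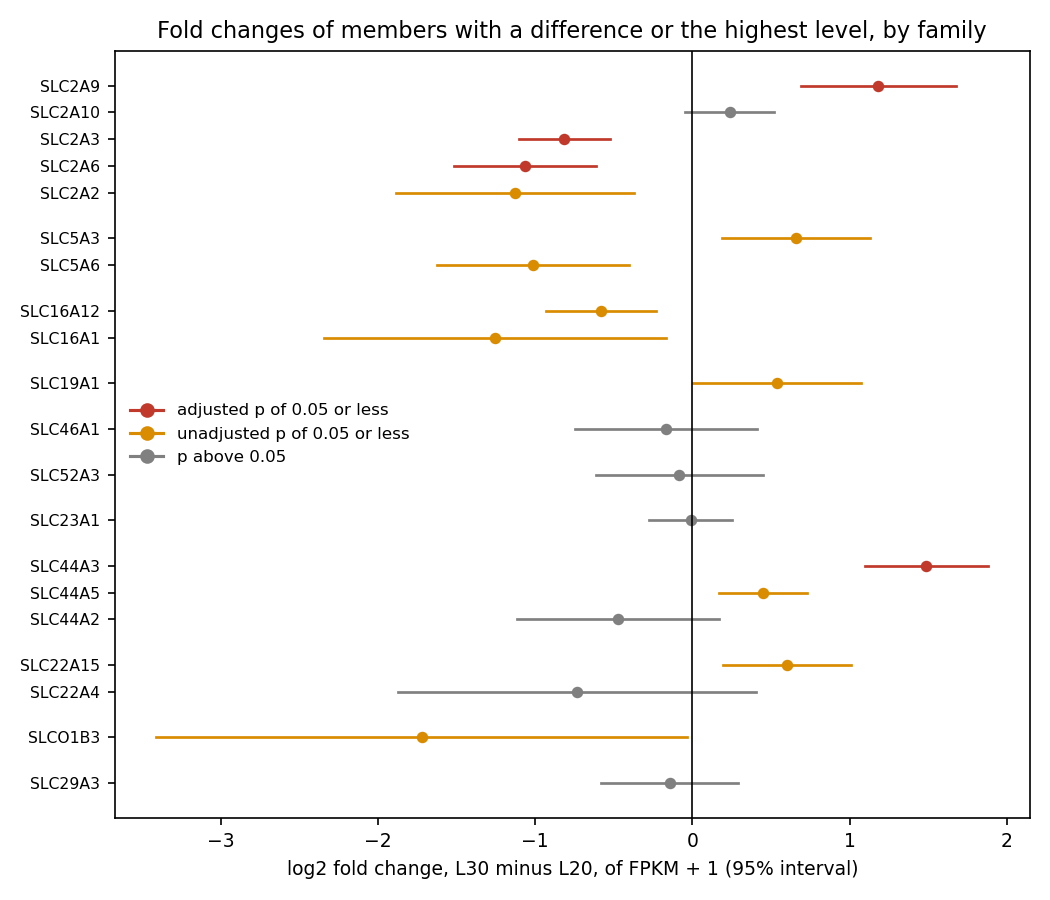
Log2 fold change of L30 over L20 on the log2(FPKM + 1) scale for 20 of the 41 tested genes (those that were DE, those without overlap and the tested gene with the highest level in each family), grouped by family, with points for the estimates and bars for their 95% confidence intervals. SLC44A3 lies farthest to the right at 1.49 and SLCO1B3 farthest to the left at −1.72, with the widest interval.

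In the SLC2 family the carrier with the highest mean level was SLC2A2, the low-affinity glucose carrier of hepatocytes that works in both directions. Its level was 31.2, 33.8 and 15.6 FPKM in the 3 L30 hens, against 62.2, 46.2 and 64.0 FPKM in the 3 L20 hens. The groups did not overlap, since every laying hen lay below every juvenile hen. SLC2A2 was DE with a log2 fold change of −1.13 (SE 0.31), but its adjusted p of 0.103 in limma missed the threshold.

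SLC2A9 (chr4:77947055-78040653, galGal4) encodes a carrier of urate, the main nitrogen waste of birds. It reached 25.9, 21.8 and 18.8 FPKM in L30 hens, against 11.2, 6.92 and 9.73 FPKM in L20 hens. The lowest laying hen was well above the highest juvenile hen. The ratio of means was 2.39, and the gene rose by a log2 fold change of 1.18 (SE 0.20, adjusted p = 0.0423 in limma).

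SLC2A3, a high-affinity glucose carrier best known from neurons and blood cells, had 3.89, 4.23 and 3.36 FPKM in L30 hens, against 7.19, 8.22 and 7.03 FPKM in L20 hens. SLC2A6, a carrier of lysosomal membranes known from macrophages, had 2.99, 2.36 and 2.68 FPKM in L30 hens, against 5.20, 6.42 and 8.84 FPKM in L20 hens. Both genes showed 2 separate groups with little spread among the laying hens. SLC2A3 fell by 0.81 on the log2 scale (SE 0.12, adjusted p = 0.0276 in limma), with a ratio of 0.511 that lay just outside the SDE limit. SLC2A6 fell by 1.06 on the log2 scale (SE 0.19, adjusted p = 0.0433 in limma), with a ratio of 0.393.

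Macrophage and lymphocyte markers were lower in L30, as these glucose carriers were. The 6 macrophage markers summed to 766, 660 and 624 FPKM in L30 hens, against 952, 1031 and 1077 FPKM in L20 hens, and each of the 6 was lower in all laying hens than in any juvenile hen. The 8 lymphocyte marker genes, with the name CD8A on 2 of them, summed to 29.6, 30.4 and 27.2 FPKM in L30 hens, against 47.2, 45.4 and 45.8 FPKM in L20 hens. Of the 6 that were tested, 5 were separate in the same way. Of all genes tested, 16.0% lay wholly lower in L30. The markers that passed the adjusted test were C1QA, PTPRC and CD3E. The 2 erythroid markers summed to 17.8, 8.48 and 4.72 FPKM in L30 hens, against 9.35, 15.0 and 4.29 FPKM in L20 hens, and overlapped. The macrophage and lymphocyte sums were at 0.670 and 0.631 of the L20 level. The endothelial and stellate cell sums were also lower, at 0.599 and 0.619, so the lower level was not particular to macrophages and lymphocytes. CD74 made up the largest part of the macrophage sum and had a ratio of 0.769. The other macrophage markers had ratios between 0.487 (C1QB) and 0.743 (TIMD4). The ratios of SLC2A3 and SLC2A6 were 0.511 and 0.393. The part of these cells in the levels of SLC2A3 and SLC2A6 was not tested.

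**Figure D2:**
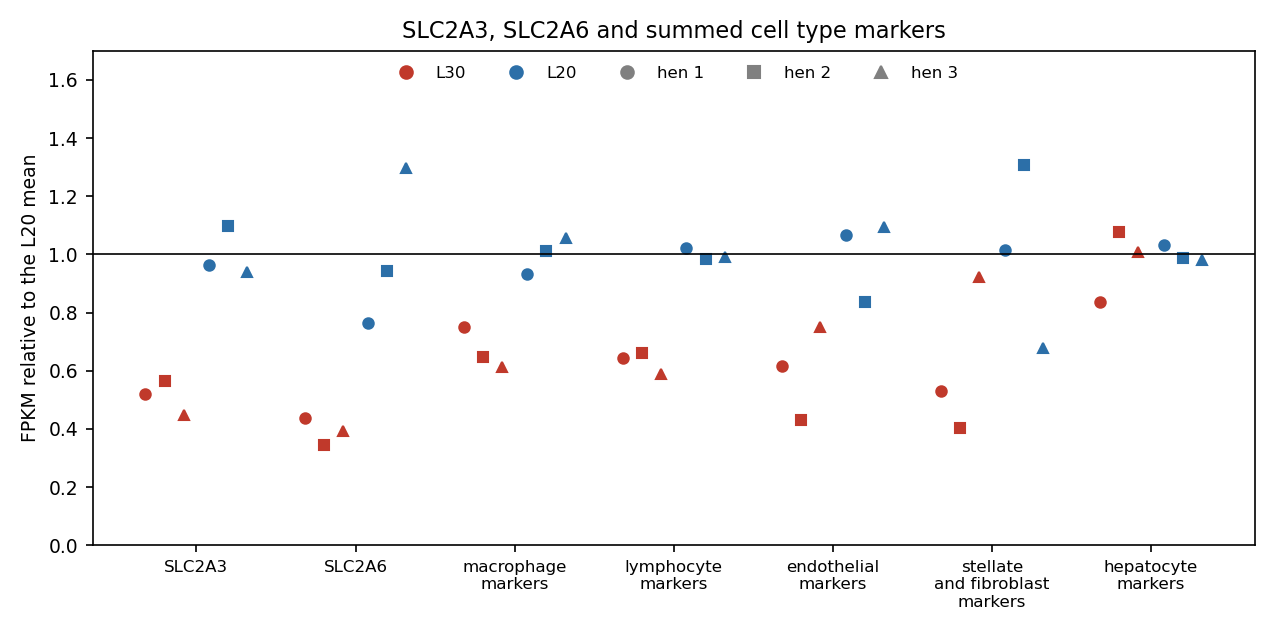
FPKM of SLC2A3 and SLC2A6 and the summed FPKM of 5 cell type marker lists in each hen, relative to the L20 mean of each, with L30 hens left of L20 hens. SLC2A3, SLC2A6 and the macrophage, lymphocyte and endothelial sums are lower in all L30 hens than in any L20 hen, whereas the stellate cell and hepatocyte sums overlap.

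The other tested SLC2 genes were not DE. SLC2A10 was the remaining one without overlap, at 2.75, 2.78 and 2.52 FPKM in L30 hens, against 1.96, 1.93 and 2.51 FPKM in L20 hens, with the closest pair of hens almost equal. The fructose carrier SLC2A5, the widely expressed glucose carrier SLC2A1, the intracellular carrier SLC2A8 and the inositol carrier SLC2A13 overlapped between the groups, with ratios between 0.836 and 1.88, and so did the regulator SLC2A4RG with a ratio of 1.16. The make-up of the family differed between the groups: SLC2A2 took 32.6, 37.1 and 24.6% of the summed FPKM of the carriers of the family in L30 hens, against 56.9, 50.4 and 55.3% in L20 hens. SLC2A9 took 27.1, 23.9 and 29.7% in L30 hens, against 10.3, 7.56 and 8.41% in L20 hens. In L30 hen 3 the urate carrier thus held a larger share than SLC2A2, which was the case in no other hen.

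**Figure D3:**
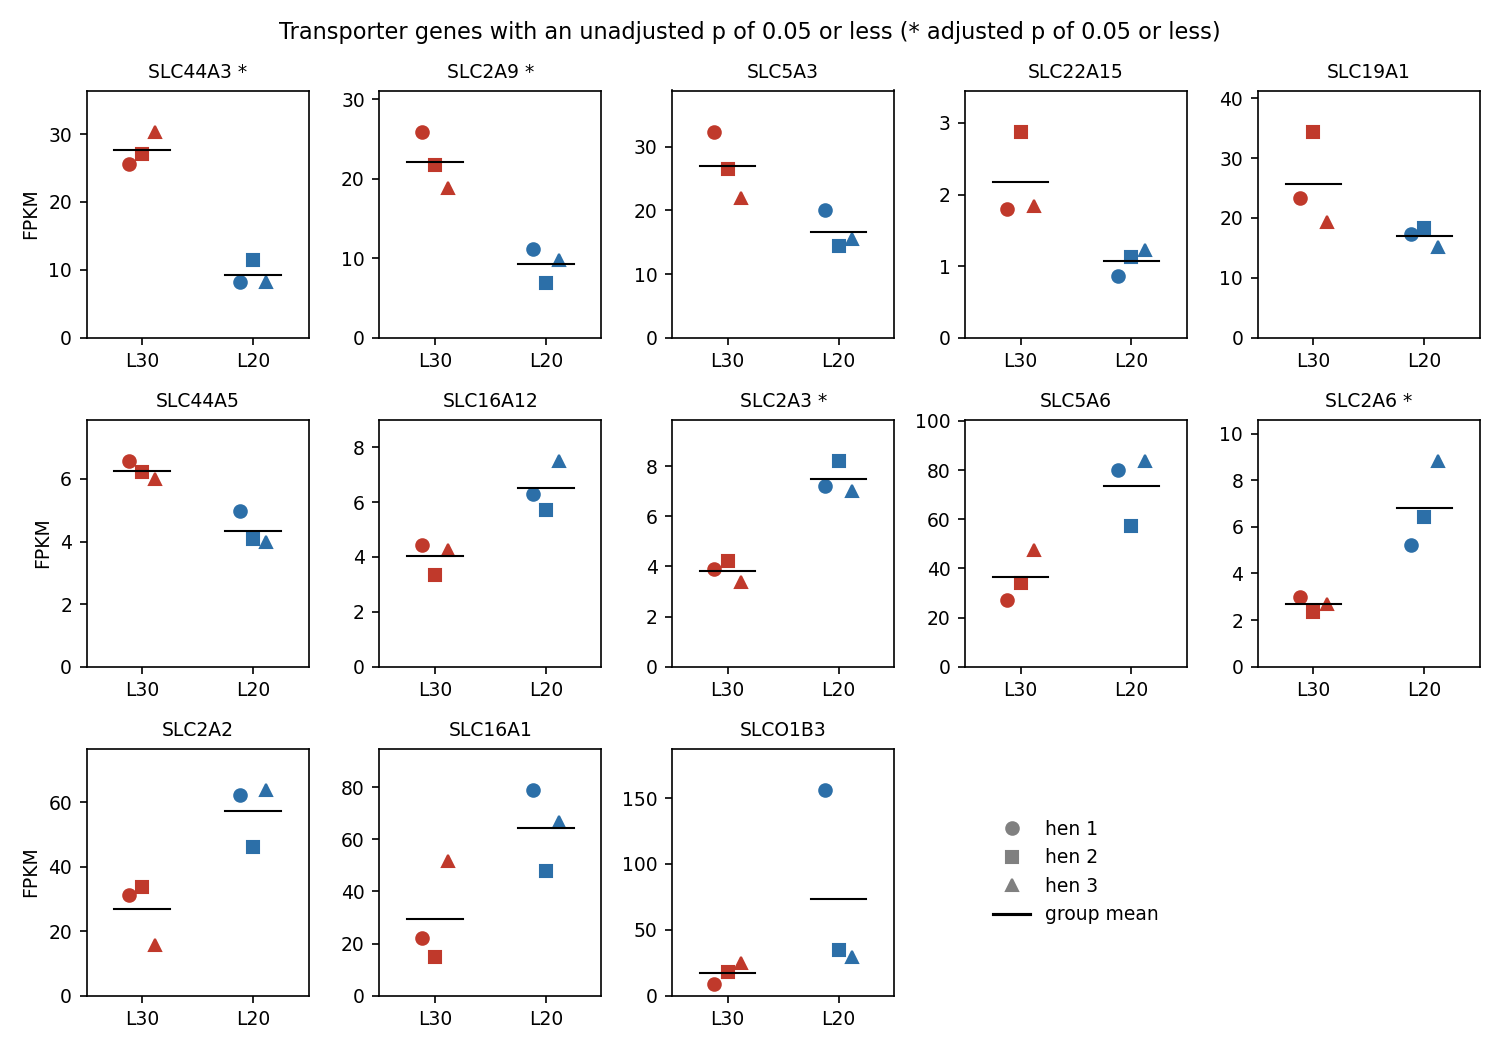
FPKM of the 13 DE genes in each hen, with L30 hens left of L20 hens. In 12 of the 13 panels the 2 groups do not overlap, the exception being SLC16A1, and SLCO1B3 has 1 L20 hen at 156 FPKM.

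Among the sodium-coupled SLC5 carriers, 3 of 7 genes were tested and 2 were DE, in opposite directions, against 22.7% of all genes tested. SLC5A6, the uptake carrier of biotin and pantothenate, had 27.3, 34.3 and 47.5 FPKM in L30 hens, against 80.1, 57.1 and 83.8 FPKM in L20 hens. SLC5A3, which takes up myo-inositol, had 32.4, 26.5 and 21.9 FPKM in L30 hens, against 20.0, 14.4 and 15.5 FPKM in L20 hens. Neither pair of groups overlapped. The log2 fold change was −1.02 (SE 0.25, adjusted p = 0.0822 in limma) for SLC5A6 and 0.66 (SE 0.19, adjusted p = 0.116) for SLC5A3. The gene model of SLC5A6 is short and lies on the unplaced contig AADN03013461.1, from 20 to 1247, and it held between 233 and 834 reads per hen. As a share of the family sum, SLC5A3 took 49.3, 42.6 and 29.5% in L30 hens, against 19.6, 19.9 and 15.1% in L20 hens. SLC5A11, another inositol carrier, was the only other tested gene and overlapped, at 0.547 to 3.06 FPKM in L30 hens, against 0.457 to 2.14 FPKM in L20 hens.

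All 4 genes of the choline transporter-like family SLC44 were tested, and 2 were DE, both higher in L30. Of all genes tested, 11.0% were DE and higher. SLC44A3 (chr8:12387235-12425687, galGal4) had the lowest adjusted p of the 41 genes. It stood at 25.6, 27.1 and 30.3 FPKM in L30 hens, against 8.25, 11.5 and 8.19 FPKM in L20 hens. The 2 groups were far apart, with a ratio of means of 2.97. The gene rose by a log2 fold change of 1.49 (SE 0.16, 95% confidence interval 1.10 to 1.88, adjusted p = 0.0126 in limma). SLC44A5, a less studied relative, had 6.58, 6.21 and 6.0 FPKM in L30 hens, against 4.97, 4.06 and 3.98 FPKM in L20 hens. Its groups were separate too, but the difference was small, with a log2 fold change of 0.45 (SE 0.11, adjusted p = 0.0862 in limma).

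SLC44A2, which has the highest mean level of the family, is a choline carrier of mitochondrial and plasma membranes. It had 25.9, 14.4 and 23.6 FPKM in L30 hens, against 31.1, 22.7 and 35.0 FPKM in L20 hens. The laying hens were mostly lower but overlapped with the juvenile ones, and the log2 fold change was −0.47 (SE 0.27, adjusted p = 0.340 in limma). Its gene model also lies on an unplaced contig, AADN03023623.1, from 20 to 5060. SLC44A1, the best known choline carrier of the family, overlapped, with a log2 fold change of −0.07 and a 95% confidence interval of −0.40 to 0.26. SLC44A3 took 40.6, 51.1 and 45.5% of the family sum in L30 hens, against 16.3, 25.8 and 15.6% in L20 hens. SLC44A2 took 41.0, 27.3 and 35.5% in L30 hens, against 61.5, 51.0 and 66.7% in L20 hens. SLC44A2 was thus the largest in all 3 juvenile hens and SLC44A3 in 2 of the 3 laying hens, L30 hen 1 being the exception.

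**Figure D4:**
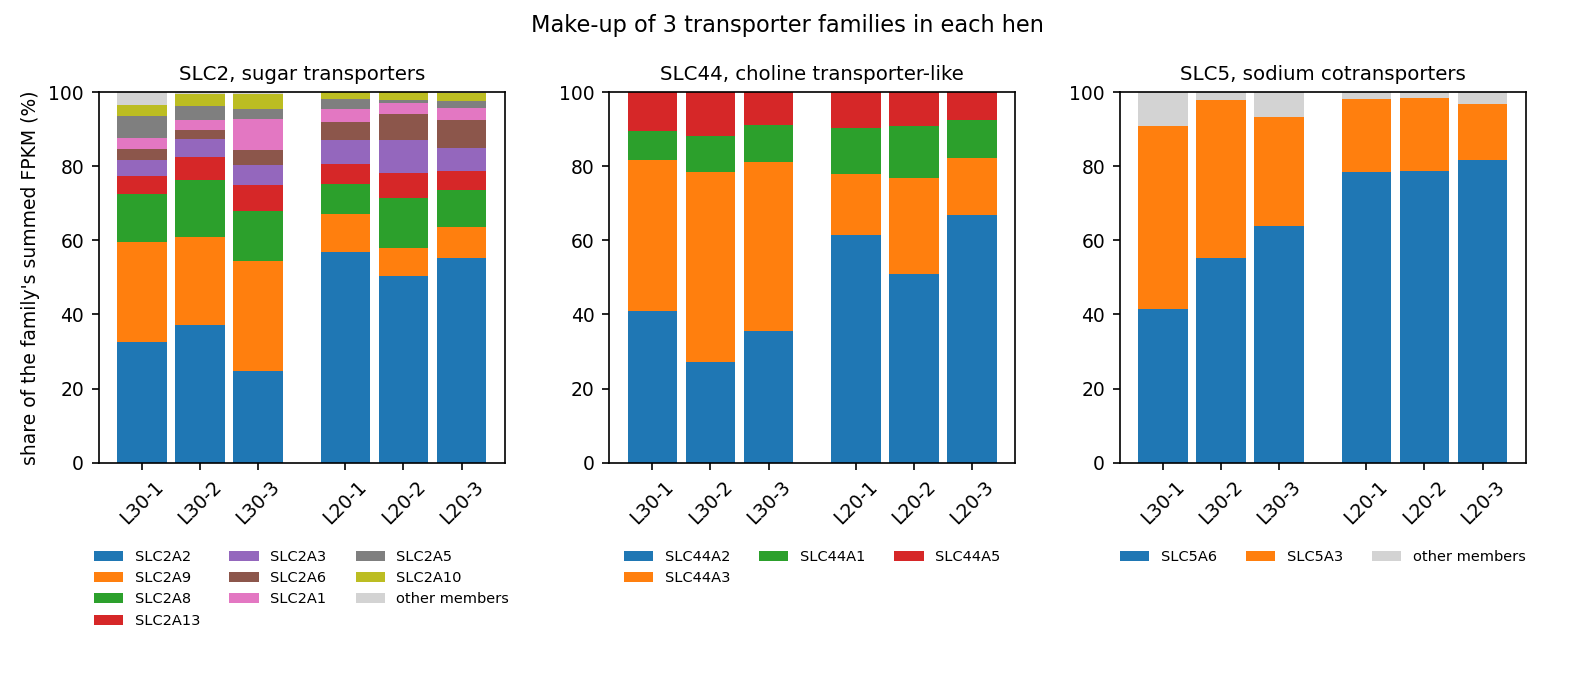
Share of the summed FPKM of the SLC2, SLC44 and SLC5 families taken by each gene in each hen, in percent, with L30 hens left of L20 hens. SLC2A9, SLC44A3 and SLC5A3 take a larger share in every L30 hen, and SLC2A2, SLC44A2 and SLC5A6 a larger share in every L20 hen.

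Among the vitamin carriers of the families SLC19, SLC23, SLC46 and SLC52, SLC19A1 was the only DE gene that the naming rule took. SLC19A1, the reduced folate carrier, had 23.3, 34.4 and 19.3 FPKM in L30 hens, against 17.2, 18.3 and 15.2 FPKM in L20 hens. Every laying hen was higher, by a narrow margin at the closest pair, and the log2 fold change was 0.54 (SE 0.22, adjusted p = 0.220 in limma). It was DE in only 1 of the 6 fits without 1 hen, and its log2 fold change was 0.31 without L30 hen 2. It was not DE under upper-quartile scaling. SLC19A1 lies in the same span as the collagen gene COL18A1, and the library kit did not mark strand, so reads in the shared part cannot be told apart. COL18A1 itself overlapped between the groups, at 15.2, 8.51 and 7.13 FPKM in L30 hens, against 11.3, 8.19 and 6.24 FPKM in L20 hens.

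The proton-coupled folate carrier SLC46A1 had 3.48, 3.49 and 5.22 FPKM in L30 hens, against 6.67, 3.48 and 4.17 FPKM in L20 hens. The riboflavin carrier SLC52A3 had 6.17, 5.39 and 3.60 FPKM in L30 hens, against 4.57, 4.67 and 6.92 FPKM in L20 hens. Both overlapped, and the small differences turned sign when 1 hen was left out (SLC46A1 without L20 hen 1) or under other settings (SLC52A3). SLC23A1, a sodium-coupled ascorbate carrier, had 6.80, 7.88 and 7.45 FPKM in L30 hens, against 8.06, 7.10 and 7.19 FPKM in L20 hens. Its log2 fold change of −0.01 had a 95% confidence interval of −0.28 to 0.25. The thiamine carrier SLC19A3 had 7.72 FPKM in L20 hen 2, while the other 5 hens had between 0.371 and 1.03 FPKM. A gene in its span without a symbol (ENSGALG00000021092) also had its highest level, 1.23 FPKM, in that hen. Another thiamine carrier gene SLC19A2 and the lysosomal carrier SLC46A3 overlapped, with ratios of 1.29 and 1.34.

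Another ascorbate carrier stood in the table under its older name SVCT2 and is described there as SLC23A2, so the naming rule missed it, and it is given here after its values were seen. It had 4.16, 4.11 and 5.36 FPKM in L30 hens, against 10.6, 13.4 and 12.0 FPKM in L20 hens. The groups were far apart, in contrast to SLC23A1, and SVCT2 fell by 1.24 on the log2 scale (SE 0.14, adjusted p = 0.0141 in limma).

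Among the 12 monocarboxylate carrier genes of the SLC16 family, 5 were tested and 2 were DE, both lower in L30. Of all genes tested, 11.7% were DE and lower. SLC16A1, the main carrier of lactate and ketone bodies, had 22.3, 14.9 and 51.5 FPKM in L30 hens, against 79.0, 47.8 and 66.7 FPKM in L20 hens. L30 hen 3 reached into the range of the juvenile hens, above L20 hen 2. The log2 fold change was −1.25 (SE 0.45, adjusted p = 0.174 in limma), and over the 6 fits without 1 hen it ranged from −1.74 without L30 hen 3, with an adjusted p of 0.0395, to −0.87 without L30 hen 2, with an adjusted p of 0.369. SLC16A1 was DE in only 2 of these 6 fits. On recovered reads its unadjusted p was 0.0586 with edgeR and 0.0227 with DESeq2 (adjusted p = 0.138). With a replicate block its unadjusted p was 0.0167 in limma (adjusted p = 0.177). SLC16A12, a creatine carrier, had 4.45, 3.35 and 4.25 FPKM in L30 hens, against 6.30, 5.72 and 7.51 FPKM in L20 hens. Its groups were separate, with a log2 fold change of −0.58 (SE 0.14, adjusted p = 0.0812 in limma).

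The aromatic amino acid carrier SLC16A10 had 13, 25.5 and 24.2 FPKM in L30 hens, against 17.0, 6.73 and 13.8 FPKM in L20 hens. It was not separate between the groups and was not DE. SLC16A1 took 29.5, 14.7 and 28.7% of the family sum in L30 hens, against 38.8, 41.0 and 38.5% in L20 hens.

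Among the SLCO carriers of organic anions, 4 of 7 genes were tested and 1 was DE, against 22.7% of all genes tested. SLCO1B3, an uptake carrier of bile acids and conjugated steroids in hepatocytes, had 8.54, 18.1 and 24.5 FPKM in L30 hens, against 156, 34.3 and 29.0 FPKM in L20 hens. The groups did not overlap, but L20 hen 1 stood far above all others. The log2 fold change of −1.72 (SE 0.70, adjusted p = 0.214 in limma) shrank to −0.96 without that hen, and the gene was DE in 3 of the 6 fits without 1 hen. A gene without a symbol (ENSGALG00000019276) shares the span of SLCO1B3 and went the other way, with 8.32, 20.0 and 5.91 FPKM in L30 hens, against 2.93, 4.98 and 4.61 FPKM in L20 hens. How reads in the shared part were divided between these genes was not tested.

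The other 3 tested SLCO genes overlapped between the groups. They were SLCO4A1, a thyroid hormone carrier with 23.6 to 28.9 FPKM in L30 hens, against 28.4 to 38.3 FPKM in L20 hens, the prostaglandin carrier SLCO2A1, and SLCO2B1, a carrier of sulfated steroids. SLCO4A1 had the largest share of the family in 4 hens, all 3 laying hens and L20 hen 3, and SLCO1B3 in the other 2.

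In the SLC22 family 6 of 7 genes were tested and 1 was DE, against 22.7% of all genes tested. SLC22A15, which carries ergothioneine and other zwitterions, had 1.80, 2.88 and 1.84 FPKM in L30 hens, against 0.863, 1.12 and 1.22 FPKM in L20 hens. Every laying hen was higher, at a low level of 23 to 61 reads per hen, with a ratio of means of 2.03. The log2 fold change was 0.60 (SE 0.17, adjusted p = 0.104 in limma) with the pseudocount of 1 FPKM. On recovered reads it was 1.13 with edgeR and 1.12 with DESeq2. SLC22A4, the ergothioneine carrier with the highest mean level of the family, had 15.2, 21.2 and 48.8 FPKM in L30 hens, against 47.8, 27.5 and 58.5 FPKM in L20 hens. The hens of both groups spread widely, and the log2 fold change of −0.74 had a 95% confidence interval of −1.88 to 0.40. It ranged from −1.20 without L30 hen 3, where the gene was DE, to −0.39 without L30 hen 1. The cation carrier SLC22A2, the carnitine carrier SLC22A16 and the members SLC22A18 and SLC22A23 overlapped, with ratios between 0.892 and 1.52.

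Nucleoside carriers were low throughout. SLC29A3, a carrier of lysosomal membranes, had 2.35, 2.25 and 3.10 FPKM in L30 hens, against 2.99, 2.20 and 3.73 FPKM in L20 hens. SLC29A1, the main equilibrative carrier of the cell surface, had 3.12, 1.35 and 1.64 FPKM in L30 hens, against 3.18, 4.11 and 2.1 FPKM in L20 hens. Both overlapped, and their log2 fold changes were −0.15 and −0.46.

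A feature shared by many of these carriers was a wide spread between hens of the same group. The ratio of the highest to the lowest hen had a median of 1.64 in L30 and 1.62 in L20 over the 41 genes, against 1.37 in L30 and 1.34 in L20 over all genes tested. L20 hen 2 was the lowest of its group in 24 of the 41 genes (58.5%), whereas it was the lowest in 35.4% of all genes. In 11 of the 41 genes (26.8%) L20 hen 2 was the lowest of its group and L30 hen 3 the highest of its own, which held for 11.5% of all genes. They included SLC2A1, SLC5A6, SLC5A11, SLC16A1, SLC16A5, SLC22A4, SLC29A3, SLC46A1, SLCO2A1 and SLCO2B1. SLC16A5, a member of the monocarboxylate family, spread from 8.60 to 43.9 FPKM among L30 hens, against 15.5 to 30.0 FPKM among L20 hens. SLCO2B1 spread from 4.93 to 13 FPKM among L30 hens, against 3.87 to 18.1 FPKM among L20 hens. These shares are descriptions over genes that come from the same 6 livers. The pair of L20 hen 2 and L30 hen 3 was picked from these data, and other pairs were not counted in this way. The cause of the spread was not tested.

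**Figure D5:**
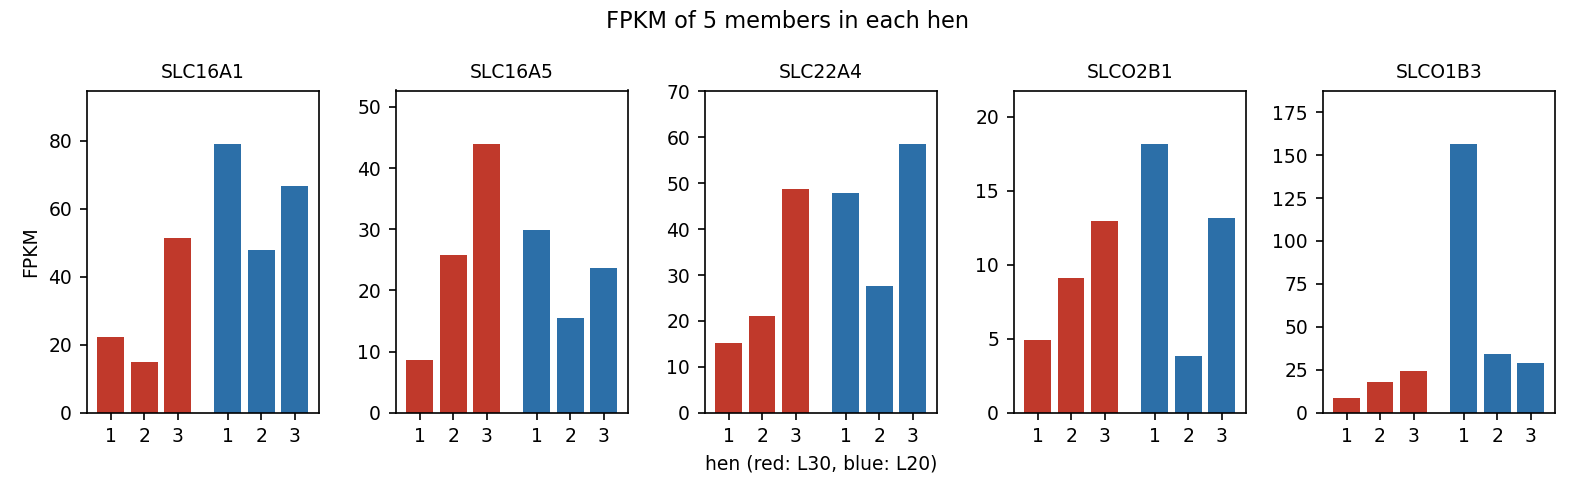
FPKM of SLC16A1, SLC16A5, SLC22A4, SLCO2B1 and SLCO1B3 in each hen, with L30 hens left of L20 hens. In the first 4 of these genes L20 hen 2 is the lowest juvenile hen and L30 hen 3 the highest laying hen, and in SLCO1B3 L20 hen 1 stands alone at 156 FPKM.

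The remaining 25 genes had a mean below 1 FPKM and were not tested, and 17 of them had at most 40 reads in any hen. They included all 4 SLC13 genes, which carry citrate, succinate and sulfate, and both SLC28 genes, which take up nucleosides with sodium. The highest of these were SLC13A2, a citrate and succinate carrier, with 0.190, 0.0570 and 0.652 FPKM in L30 hens, against 0.568, 1.91 and 1.15 FPKM in L20 hens, and SLC28A2, a purine nucleoside carrier, with 0.531, 0.609 and 0.555 FPKM in L30 hens, against 0.657, 0.733 and 0.504 FPKM in L20 hens. Both overlapped between the groups. SLC23A3, SLC16A4 and SLC46A2 were lower in all laying hens than in any juvenile hen. Among all genes tested, whose mean levels were higher than these, 16.0% lay wholly lower in L30. SLC16A4 rested on 5 to 21 reads per hen and SLC46A2 on 4 to 21. For SLC23A3 the level was 0.357, 0 and 0.309 FPKM in L30 hens, against 0.611, 0.934 and 0.667 FPKM in L20 hens, from 0 to 27 reads. Single hens stood out in a few others. SLC2A12, a glucose and urate carrier, had 3.41 FPKM from 446 reads in L30 hen 1, and between 0.076 and 0.566 FPKM in the other 5 hens. The intestinal and renal glucose carrier SLC5A1 had 2.78, 0.373 and 1.18 FPKM in L30 hens, against 0.364, 0.444 and 0.706 FPKM in L20 hens.

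The enzymes and partner proteins that handle the same substrates were listed beside the carriers. Of 82 names, 67 were in the table and 62 were tested. Of these, 18 (29.0%) were DE, 15 higher and 3 lower in L30, against 22.7% of all genes (11.0% higher and 11.7% lower). Over the 62 genes the median log2 fold change was 0.084, with 35 positive and 27 negative. The list was chosen with earlier results of these data known. The choline genes held the largest number, with 5 of 7 tested DE, 4 of them higher. PEMT, which makes phosphatidylcholine by methylation, had 286, 233 and 248 FPKM in L30 hens, against 112, 149 and 134 FPKM in L20 hens. CEPT1, which joins choline or ethanolamine to diacylglycerol, had 64.6, 118 and 73.2 FPKM in L30 hens, against 33.1, 26.5 and 32.3 FPKM in L20 hens. Both rose, by log2 fold changes of 0.96 (adjusted p = 0.0451 in limma) and 1.40 (adjusted p = 0.0441). CHPT1, which makes phosphatidylcholine alone, fell by 1.11 on the log2 scale (adjusted p = 0.0338 in limma), at 3.27, 2.65 and 2.43 FPKM in L30 hens, against 5.69, 7.13 and 8.92 FPKM in L20 hens. CHDH, which oxidises choline, and BHMT, another gene of the choline list, were DE and higher in L30, with adjusted p-values of 0.0799 and 0.161 in limma.

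Among the partners of the monocarboxylate carriers, LDHB, a lactate dehydrogenase subunit, fell by 3.24 on the log2 scale (adjusted p = 0.0140 in limma). Its level was 141, 269 and 101 FPKM in L30 hens, against 1567, 1234 and 1710 FPKM in L20 hens. The laying hens were thus far below the juvenile ones, in the same direction as SLC16A1. BSG, the chaperone that brings SLC16A1 to the membrane, was DE in the other direction (adjusted p = 0.181 in limma). It had 180, 184 and 158 FPKM in L30 hens, against 130, 104 and 144 FPKM in L20 hens. The other listed partners, EMB and LDHA, were lower in L30 on average but not DE. EMB had 0.487 to 1.05 FPKM in L30 hens, against 1.14 to 1.32 FPKM in L20 hens, a ratio of 0.670. LDHA overlapped, with a ratio of 0.720.

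UPP2, which splits uridine, rose by a log2 fold change of 2.91 (adjusted p = 0.0161 in limma), at 19.1, 15.8 and 42.9 FPKM in L30 hens, against 2.21, 2.38 and 2.23 FPKM in L20 hens. The bile salt export pump ABCB11 was DE and higher at 21.4, 31.3 and 22.4 FPKM in L30 hens, against 14.1, 8.60 and 9.76 FPKM in L20 hens, with an adjusted p of 0.0520 in limma. Further DE genes included SORD, PANK2, CPT2, ADA, TK2 and GSTA, all higher.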

How the data were processed

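Liver mRNA of 6 hens (3 L30, 3 L20; separate animals) was sequenced as paired reads. After cleaning, the authors mapped reads to galGal4 with TopHat2 2.0.9 and deposited FPKM per gene and hen, together with read counts divided by a library factor (a scaled count, unit signal). No deposited column was left unused for want of a sample. Reads were recovered by dividing these scaled counts by the step that 1 read makes in each library. At least 99.774% of low values were whole within 0.02 reads, and in 3 libraries 1 or 2 values lay below 1 read.

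The test was limma 3.58.1 (R 4.3.3) with an eBayes trend on log2(FPKM + 1), over genes with a mean of at least 1 FPKM. The pseudocount understates changes of low genes. DE and SDE thresholds were those of the study, but the study tested with Cuffdiff, so its calls can differ from those given here. Exact permutation tests of 3 against 3 hens cannot give a p under 0.1, which every gene without overlap reached. Members that were DE and the gene with the highest mean level of each family were named with every hen, and others by ranges. A few genes are not reported here, though the counts include them. Members and lists were chosen with earlier results of these data known. Alternatives changed the pseudocount (0.1, 0.01), filter (none, 5 FPKM), scaling, eBayes trend and replicate block, left out each hen, and used edgeR 4.0.16 or DESeq2 1.42.0 on the recovered reads. The methods were tested on simulated counts, with changes larger than those of the DE carriers in the main test. That test therefore does not cover changes of the size given here. No sequences were used here.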

Additional observations from a re-analysis of the deposited data

How the results depend on the processing

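The fold changes of SLC44A3, SLC2A9, SLC2A3 and SLC2A6 kept their direction under all 17 alternatives they were fitted in (16 for SLC2A6), but the adjusted calls were less stable. The number of SDE carriers was 3, against 1 without a filter on low values, 6 with DESeq2 and 0 to 3 when single hens were left out. It was 2 without L20 hen 1, 1 without L20 hen 2 or L30 hen 1, 0 without L20 hen 3 or L30 hen 2, and 3 without L30 hen 3, where SLC16A1 was called and SLC2A6 was not. Over all genes the 268 SDE genes became 64 to 385 without single hens, 429 with edgeR and 878 with DESeq2. Over the leave-outs the adjusted p in limma ranged from 0.0134 to 0.0610 for SLC44A3 and up to 0.143 for SLC2A9. The 13 DE carriers numbered 11 to 15 without single hens, and the 18 DE partner genes 14 to 24. The 13 without overlap numbered 15 to 22. Leaving out a hen cannot make separate groups overlap, so this last range is no measure of stability. DESeq2 also gave an adjusted p below the threshold to SLC2A2, SLC5A6, SLC5A3, SLC44A5, SLC22A15 and SLCO1B3, and to SLC2A12, which was below the limma filter. Under median-ratio scaling the DE genes of the whole table split into 1268 higher and 949 lower, and under upper-quartile scaling into 878 and 1490, against 1070 and 1143. The fold change turned sign under at least 1 alternative in 12 of the 41 tested genes, none of them DE. They were SLC16A5, SLC19A2, SLC22A16, SLC22A23, SLC2A1, SLC2A4RG, SLC2A8, SLC44A1, SLCO2B1 and 3 that were named with every hen. SLC23A1 was 0.032 under median-ratio scaling, 0.12 with edgeR, 0.11 with RLE factors and 0.11 with DESeq2, and −0.056 to 0.039 without single hens. SLC52A3 was 0.048 with edgeR, 0.034 with RLE factors and 0.038 with DESeq2, and −0.22 to 0.10 without single hens, and SLC46A1 was −0.33 to 0.057 without single hens. The cause was not tested.

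Replicate numbers were not taken as pairs in the main test. Same-numbered hens deviated together with correlations of 0.017, 0.012 and 0.094, against −0.074 to 0.059 for differently numbered hens. Whether hens of the same number shared a batch was not tested. With a replicate block 0 carriers were SDE and 14 were DE, and 54 genes of the whole table were SDE. The 25 genes below 1 FPKM were not tested, and 17 of them had at most 40 reads in any hen.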
